A study of Homo sapiens with 21 samples.

Results

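A set of 377 circular RNAs (circRNAs) was read in both EGFR-mutant lung cancer lines of the study, PC-9 and NCI-H1975, and in no library of NL20, the normal lung control. The table held 124082 circRNAs. Members were chosen by measured read counts: they had at least 5 reads summed over the 3 PC-9 libraries, at least 5 over the 3 NCI-H1975 libraries and 0 in the 3 NL20 libraries. The rule also left out hsa_circ_2642 and hsa_circ_2643. Of the 8193 circRNAs that reached 5 reads in both cancer lines, 7814 had at least 1 read in NL20, so absence from NL20 was the exception among them.

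A circRNA forms by back-splicing, in which a splice donor is joined to an acceptor that lies upstream of it. The closed molecule has no free end, which protects it from exonucleases, and it can be counted from reads that cross the back-splice junction. How much of a circRNA a cell holds depends on transcription of its host gene, on splicing and on how long the molecule lasts.

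NL20 is an immortalized bronchial epithelial line that forms no tumours. PC-9 libraries came from cells with no resistance code in their label, called PC-9 here, and from gefitinib-resistant cells kept in 1 µM gefitinib, an EGFR tyrosine kinase inhibitor. NCI-H1975 libraries came from cells with neither a resistance nor a plasmid code, called NCI-H1975 here, from osimertinib-resistant cells kept in 1 µM osimertinib, a later EGFR inhibitor, and from cells transfected with pCMV6 or with FASN. Transfected cells received 50 µg/ml G418. FASN is fatty acid synthase, which makes palmitate, and pCMV6 is an expression vector backbone. FASN RNA or protein was not measured in these counts. Both cancer lines carry an EGFR mutation in all of their groups, per the labels. Each of the 7 groups had 3 libraries, and the labels do not say whether these came from separate cultures or whether the resistant and transfected cells were clones. P-values therefore measure the spread between libraries, which may be technical.

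Library totals ran from 95808 to 203079 reads. The table numbers its circRNAs and does not pair them with a gene name, a sequence or a coordinate, so host genes and the defining markers of the lines were not looked up. Osimertinib-resistant replicate 2 stood apart from its group. In pairs of libraries of a group, the chi-square per degree of freedom over circRNAs with at least 20 reads was 4.8 and 4.37 for the pairs with that library, against 2.07 to 2.68 for all other pairs. No pair matched closely enough to be a copy.

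The values that chose the members are described first. Absence from NL20 was a statement about 536377 reads. A count of 0 there allows up to 3 reads over the group, or 7.63 CPM (counts per M, or mega, of the scaled reads in the circRNAs that enter the tests). At the minimum of 5 reads a member stood at 15.7 CPM in PC-9 or 14.7 CPM in NCI-H1975, close to that limit. In both lines at once, 78 members stood at 4 times the limit or more and 23 at 10 times or more. For the other 299 the depth allows an NL20 level within 4-fold of the lower of the cancer line levels. These limits cover counting error only.

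Many members sat at the edge of the rule. 74 had exactly 5 reads in PC-9, 71 had exactly 5 in NCI-H1975 and 20 had exactly 5 in both. Just outside were 82 circRNAs with 4 reads in PC-9, 94 with 4 reads in NCI-H1975 and 197 with 1 read in NL20 that met the rest of the rule. At least 10 reads in both lines were found for 92 members, at least 20 for 26 and at least 50 for 6. In PC-9, 47 members had all their reads in a single library, and for 33 of these it was replicate 2, the deepest PC-9 library. In NCI-H1975 there were 32 such members, 18 of them in replicate 3, the deepest of its group. The median member had 39 reads over the 18 cancer line libraries, with a range from 11 to 1249, and the 10 members with the most reads held 22.2% of all reads of the set.

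As a share of all reads in a library, the set made up 1.69% ± 0.060 in PC-9 (SD, n = 3) and 1.51% ± 0.037 in gefitinib-resistant PC-9. In NCI-H1975 it was 1.22% ± 0.039, against 1.02% ± 0.037 in osimertinib-resistant, 1.02% ± 0.059 in pCMV6 and 1.07% ± 0.063 in FASN cells. All libraries of a resistant or transfected group lay below all libraries of the PC-9 or NCI-H1975 group of the same line. The rule asked for reads in PC-9 and NCI-H1975 and not in the other groups, which favours higher shares there. A change in the cells cannot be told apart from this effect of the choice, so nothing is read from the difference.

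**Figure D1:**
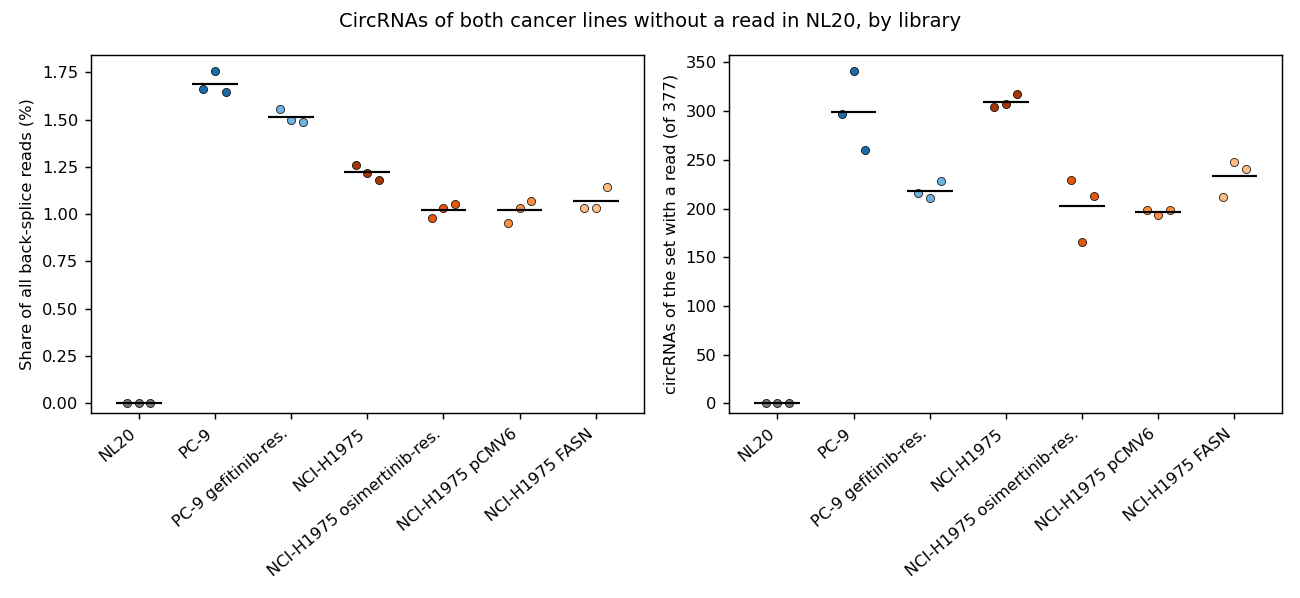
Share of all back-splice reads (%, left) and number of the 377 circRNAs with at least 1 read (right) in each of the 21 libraries, with 1 point per library and the mean of each group as a bar. NL20 is at 0 by the rule, and PC-9 and NCI-H1975, which the rule also used, have the highest share of their line, at 1.69% and 1.22%.

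The 4 groups that the rule did not use show how far the set carried over to other cells of the same lines. Of the 377 members, 308 were read in gefitinib-resistant PC-9, 295 in osimertinib-resistant NCI-H1975, 298 in pCMV6 cells and 327 in FASN cells. All 6 cancer line groups held a read of 205 members. A further 94 were unread in 1 of the 4 groups, 51 in 2, 24 in 3 and 3 in all 4. Members unread in a group came to 18.3% in gefitinib-resistant PC-9, 21.8% in osimertinib-resistant, 21.0% in pCMV6 and 13.3% in FASN cells. Among the 7814 circRNAs of both lines with an NL20 read, the shares were 3.63%, 3.95%, 4.53% and 2.55%, but these were also better counted, with a median of 15 reads in PC-9 and 16 in NCI-H1975 against 8 and 8 for the members. The part of depth in that difference was not tested. The 3 members unread in all 4 groups were hsa_circ_93472, hsa_circ_103845 and hsa_circ_94627, none with more than 8 reads in PC-9 or 6 in NCI-H1975.

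After thinning every library to 95808 reads, 208 ± 9.36 members were read in a gefitinib-resistant PC-9 library (SD, n = 3) and 281 ± 26.9 in a PC-9 library. The corresponding numbers were 280.4 ± 1.2 in NCI-H1975, 219 ± 13.7 in FASN, 193 ± 4.03 in pCMV6 and 189.8 ± 24.9 in osimertinib-resistant cells. Osimertinib-resistant replicate 2 held the fewest at this depth, 161.8, while the highest library of its group had 209.

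A core of 29 members was read in every one of the 18 cancer line libraries. It held 8 of the 10 members with the most reads, and its own members had between 78 and 979 reads. hsa_circ_6760 was an abundant member of the core. It had 85, 104 and 65 reads in PC-9, 54, 73 and 73 in gefitinib-resistant PC-9 and 62, 44 and 59 in NCI-H1975. Osimertinib-resistant cells had 48, 43 and 52 reads, pCMV6 cells 39, 44 and 37, and FASN cells 33, 30 and 34. In CPM this was 803 ± 64.6 in PC-9 (SD, n = 3), 753 ± 106 in gefitinib-resistant PC-9, 488 ± 102 in NCI-H1975, 491 ± 6.15 in osimertinib-resistant, 496 ± 64.2 in pCMV6 and 365 ± 82.8 in FASN cells. The PC-9 groups overlapped, as did NCI-H1975 with each of its other groups, while all FASN libraries lay below all pCMV6 libraries. No comparison within a line called it. Its log2 difference between gefitinib-resistant and other PC-9 cells was -0.09 ± 0.27 (SE), and between osimertinib-resistant and other NCI-H1975 cells 0.01 ± 0.28.

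hsa_circ_11516 and hsa_circ_16677 were likewise read in both lines in all 18 libraries. For hsa_circ_11516 the libraries of a group disagreed. It had 30, 15 and 5 reads in PC-9, 21, 49 and 26 in gefitinib-resistant PC-9 and 32, 12 and 58 in pCMV6 cells. Its CPM in pCMV6 cells, 424 ± 305 (SD, n = 3), had the widest spread of its 6 cancer groups, and osimertinib-resistant replicate 2 held its highest level, 838 CPM. hsa_circ_16677 ranged from 204 ± 53.3 CPM in NCI-H1975 to 478 ± 173 in osimertinib-resistant cells.

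**Figure D2:**
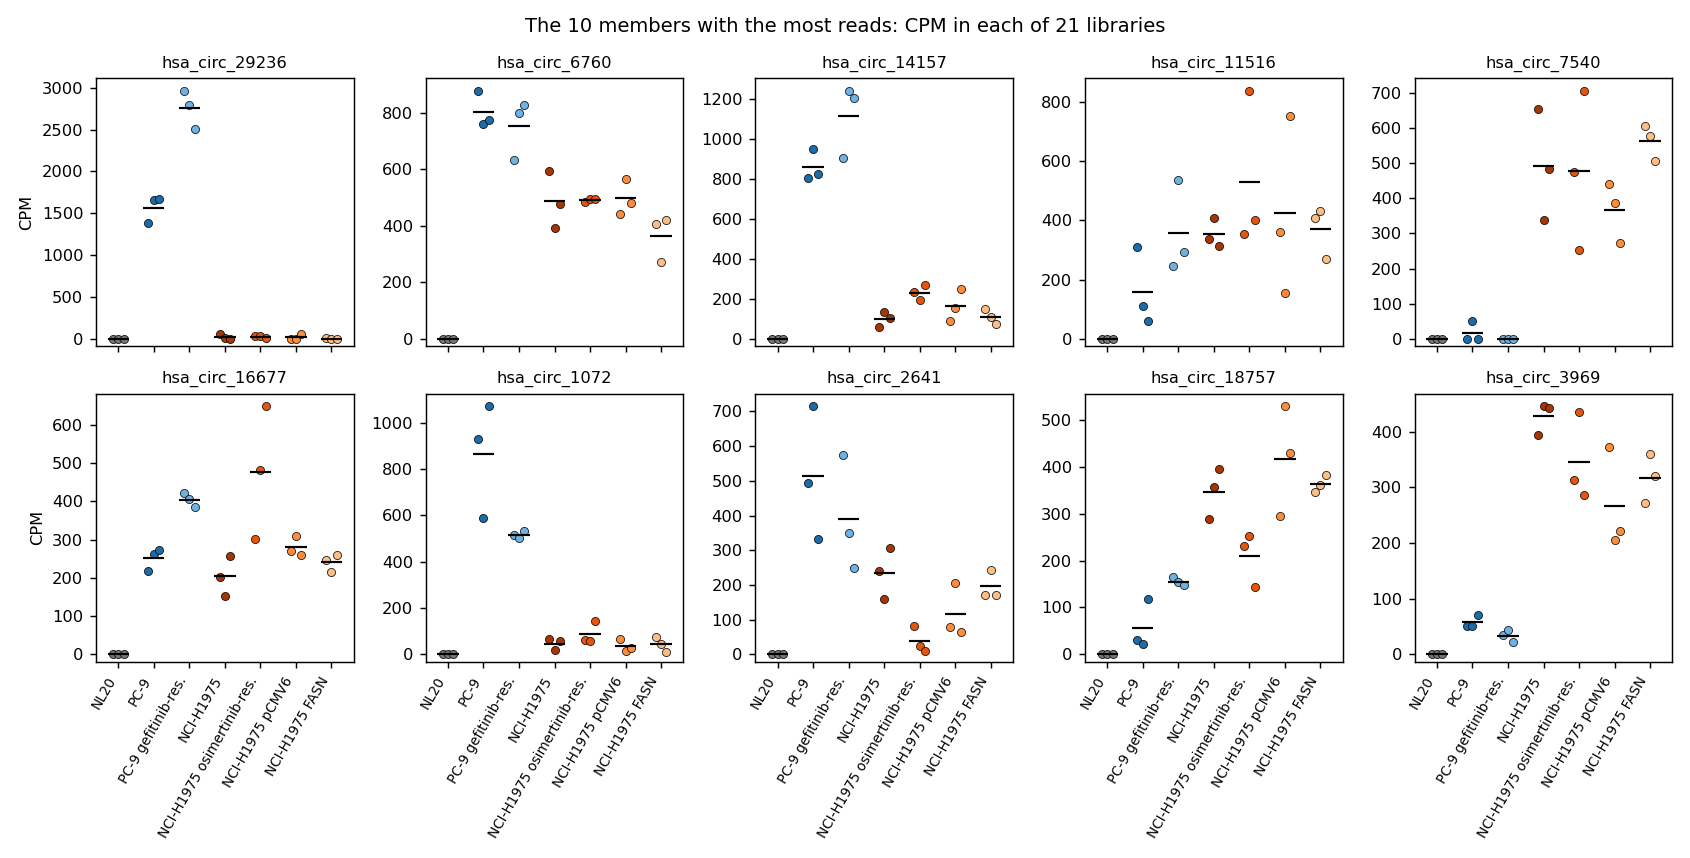
CPM of the 10 members with the most reads in each library, with 1 point per library and the mean of each group as a bar. hsa_circ_29236, hsa_circ_14157 and hsa_circ_1072 are higher in both PC-9 groups than in the NCI-H1975 groups, and hsa_circ_7540 and hsa_circ_3969 show the reverse. hsa_circ_6760, hsa_circ_11516 and hsa_circ_16677 differ less between the lines.

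Presence in both cancer lines did not mean like levels. In the libraries that chose the members, 27 had a PC-9 level at least 4 times that in NCI-H1975, 20 had one at most a 0.25 part of it and 244 lay within 2-fold. The 27 held 33.6% of the set's reads in PC-9, and the 20 held 23.9% of those in NCI-H1975. The widest ratio was that of hsa_circ_29236, with 134, 227 and 140 reads in PC-9 and 6, 1 and 0 in NCI-H1975, a ratio of 76.6. hsa_circ_1072 followed with 90, 81 and 90 reads against 7, 2 and 7, a ratio of 17.5. At the other end, hsa_circ_7540 had 0, 7 and 0 reads in PC-9 and 68, 38 and 60 in NCI-H1975, 22.2-fold lower in PC-9. It entered the set through 1 PC-9 library alone. hsa_circ_19488 had 1, 1 and 3 reads against 25, 25 and 25 and was 14.0-fold lower in PC-9. Across the 377 members the Spearman correlation of levels was 0.311 between PC-9 and NCI-H1975, 0.59 between PC-9 and gefitinib-resistant PC-9, and from 0.521 to 0.604 between NCI-H1975 and the other groups of that line. The groups differ in depth, and the rule bounds the levels in PC-9 and NCI-H1975, so these values are a description.

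The lines were then compared in libraries that the rule did not use, gefitinib-resistant PC-9 against the mean of osimertinib-resistant, pCMV6 and FASN NCI-H1975. All of these cells were drug-resistant or transfected, so line cannot be told apart from treatment in this comparison. Counts passed the filter on low values for 184 of the 377 members, so 193 went untested, and a member can pass through the line in which it is high. edgeR's quasi-likelihood test called 59 members, 39 higher and 20 lower in gefitinib-resistant PC-9. Over all 9175 circRNAs tested it called 22.7% in either direction, 13.6% higher and 9.08% lower, against 32.1% of the members tested. The median log2 difference was 0.38 over the members tested and 0.04 over all circRNAs tested. In the libraries that chose the members, 37 of the 39 called higher and 18 of the 20 called lower differed in the same direction. Those libraries are of the same lines and the rule used them, so nothing is read from that agreement. Without gefitinib-resistant replicate 2, 39 members were called, and 33 without the filter on low counts.

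hsa_circ_29236 led the higher members, with 253, 255 and 221 reads in gefitinib-resistant PC-9 and 12 over the 9 NCI-H1975 libraries, 187-fold higher (edgeR adjusted p = 1.98e-170). It was the most abundant member, yet in NCI-H1975 no library of any group held more than 6 of its reads. hsa_circ_14157 had 77, 113 and 106 reads in gefitinib-resistant PC-9. It had 23, 17 and 28 in osimertinib-resistant, 8, 12 and 19 in pCMV6 and 12, 12 and 6 in FASN cells. Its level was 6.65-fold higher in gefitinib-resistant PC-9 (log2 2.78 ± 0.24 SE, adjusted p = 7.87e-28 by edgeR). All 3 gefitinib-resistant libraries lay above all 9 of these NCI-H1975 libraries for both circRNAs. hsa_circ_7540 had no read in gefitinib-resistant PC-9 and 387 over the 9 libraries of NCI-H1975. It was at least 42.0-fold lower in gefitinib-resistant PC-9 (edgeR adjusted p = 4.63e-24). For hsa_circ_809 it was none against 228, and gefitinib-resistant PC-9 was lower by 24.4-fold or more (adjusted p = 6.37e-13 by edgeR). In PC-9 itself hsa_circ_7540 had 7 reads and hsa_circ_809 had 14, so gefitinib-resistant cells lacked a read of either where cells with no resistance code held few. All 4 calls held with any of the 12 libraries left out.

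**Figure D3:**
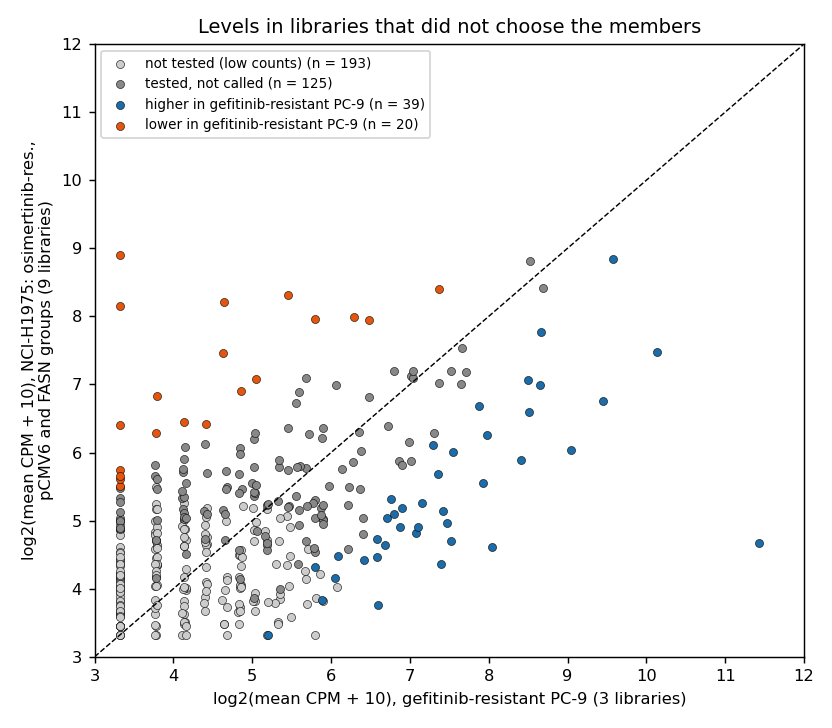
Mean CPM of each of the 377 members in gefitinib-resistant PC-9 (x axis) and in the osimertinib-resistant, pCMV6 and FASN groups of NCI-H1975 (y axis), both as log2(CPM + 10), with the line of equal levels dashed. Blue points are the 39 members called higher in gefitinib-resistant PC-9 and orange points the 20 called lower. The column at the left edge holds members without a read in gefitinib-resistant PC-9.

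The next comparison asked which members go with gefitinib resistance in PC-9. The clearest change was a loss: hsa_circ_11450 fell from 49, 81 and 40 reads in PC-9 to 5, 13 and 9. That was 524 ± 59.5 against 101 ± 42.0 CPM (SD, n = 3), and the groups did not overlap (log2 -2.36 ± 0.49 SE, edgeR adjusted p = 0.000535). hsa_circ_21998 had 17, 15 and 6 reads in PC-9 and none in the resistant cells, a level lower by 10.55-fold or more (adjusted p = 0.0221 by edgeR). The most abundant member, hsa_circ_29236, was higher with resistance, at 2753 ± 232 CPM against 1568 ± 161, with all 3 resistant libraries above all PC-9 libraries. Its log2 change was 0.81 ± 0.24 (SE) with an edgeR adjusted p of 0.0435. It took 13.9% of the set's reads in resistant cells and 6.85% in PC-9. This call was lost with any of the 6 libraries left out, with adjusted p from 0.109 to 0.256.

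In all, 5 of the 184 members tested were called by edgeR, 1 higher and 4 lower, or 2.72% against 1.35% of all circRNAs tested, with 0.73% higher and 0.621% lower. The rule used the PC-9 libraries, which fixes a minimum there and none in the resistant cells, so nothing is read from the excess of lower members. The median log2 change was -0.46 over the members and -0.00 over all circRNAs tested. The call of hsa_circ_11450 held with any of the 6 libraries left out. The other members called lower, hsa_circ_809 and hsa_circ_16672, had no read in resistant cells either, and their calls held in 2 and 1 of 6 such fits. That of hsa_circ_21998 held in 1 of 6, and DESeq2 did not call it. The count was 1 without any of the gefitinib-resistant libraries, 3 without PC-9 replicate 1 and 2 without PC-9 replicate 2.

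Among the other abundant members, hsa_circ_1072 had 90, 81 and 90 reads in PC-9 and 44, 46 and 47 with resistance. At 864 ± 247 against 517 ± 14.3 CPM (SD, n = 3) the groups did not overlap, but the edgeR adjusted p was 0.428. hsa_circ_18757 stood at 57.3 ± 53.7 CPM in PC-9 and 155 ± 8.41 with resistance, likewise without overlap and with an edgeR adjusted p of 0.132.

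In osimertinib-resistant NCI-H1975, single members stood apart in both directions. hsa_circ_12368 went from 5, 1 and 4 reads in NCI-H1975 to 37, 37 and 47 in the resistant cells. It stood at 29.7 ± 19.7 and 415 ± 38.3 CPM (SD, n = 3), 14.1-fold higher with resistance (log2 3.76 ± 0.54 SE, edgeR adjusted p = 4.32e-09). For comparison, it stood at 237 ± 47.1 CPM in PC-9, below all 3 osimertinib-resistant libraries, and at 396 ± 90.3 CPM in gefitinib-resistant PC-9, which overlapped them. pCMV6 cells held 3, 8 and 7 reads and FASN cells 7, 17 and 13, all below the resistant libraries. hsa_circ_16677 rose from 21, 17 and 32 to 30, 42 and 68 reads (log2 1.22 ± 0.37 SE, edgeR adjusted p = 0.0411), with no overlap in CPM. Its call held in 1 of the 6 fits with a library left out, and the highest adjusted p was 0.316.

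hsa_circ_18450 went the other way, from 16, 11 and 11 reads in NCI-H1975 to none with osimertinib resistance, so that the level there was lower by 10.8-fold or more (adjusted p = 4.08e-05 by edgeR). In each of the other 15 cancer line libraries it had between 6 and 24 reads, so osimertinib-resistant cells were the one cancer group without it. hsa_circ_2641 fell from 25, 18 and 38 reads to 8, 2 and 1, or from 236 ± 73.1 to 37.7 ± 37.8 CPM (SD, n = 3; log2 -2.61 ± 0.53 SE, edgeR adjusted p = 0.000152). Its groups did not overlap. pCMV6 cells held 7, 16 and 5 reads of it and overlapped the resistant cells in CPM, while FASN cells held 14, 27 and 14. Against NCI-H1975, pCMV6 cells were lower in hsa_circ_2641 without a call (log2 -1.02 ± 0.46 SE, edgeR adjusted p = 0.548). Of the 184 members tested 5 were called, 2 higher and 3 lower, or 2.72% against 2.52% of all circRNAs tested, with 1.36% higher and 1.16% lower. The share of members called was thus near the background, and the rule used the NCI-H1975 libraries here. The median log2 change was -0.32 over the members and -0.05 over all circRNAs tested.

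Without osimertinib-resistant replicate 2, the library that stood apart, 3 members were called. The calls of hsa_circ_12368, hsa_circ_18450 and hsa_circ_2641 held with any of the 6 libraries left out. The count was also 3 without NCI-H1975 replicate 1 or replicate 3, and 9 with the Wald test of DESeq2.

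**Figure D4:**
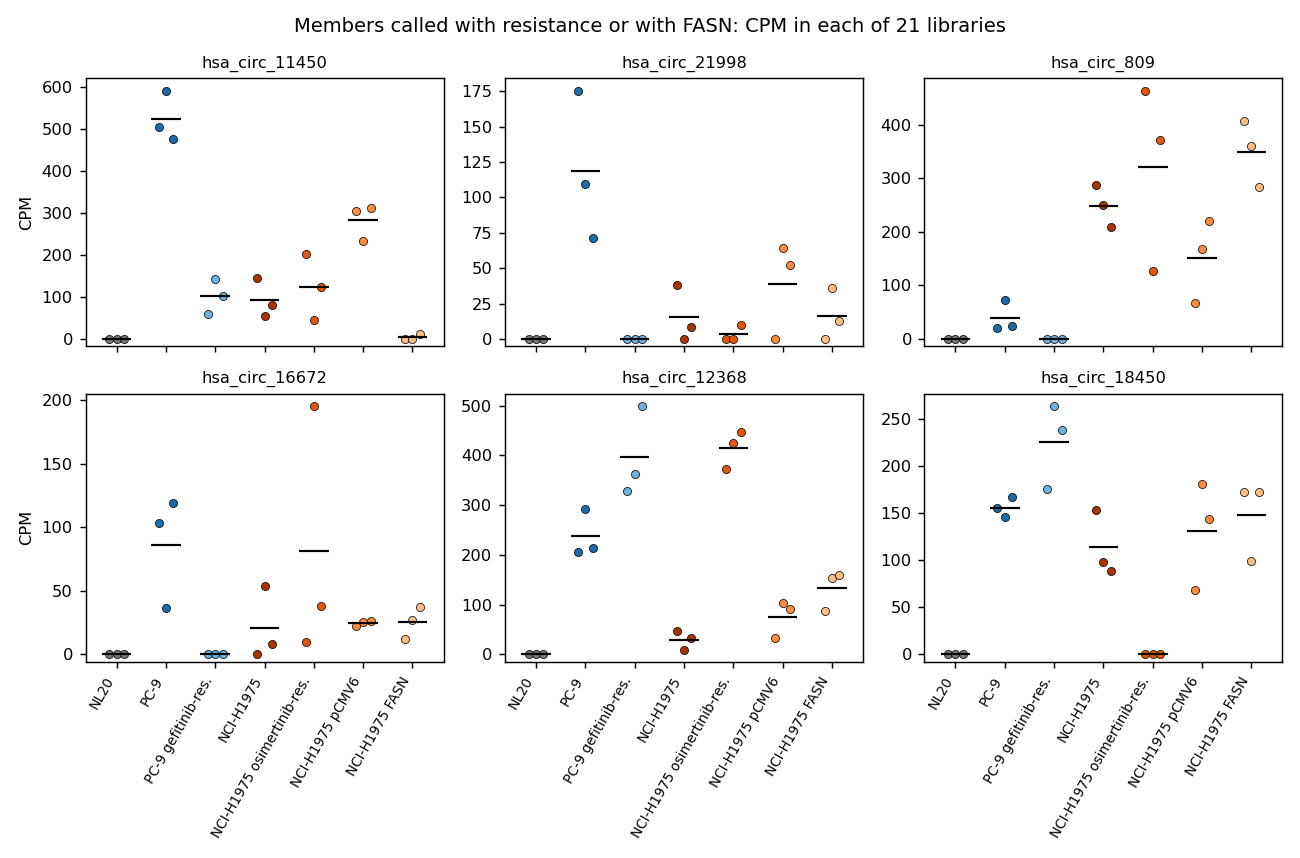
CPM in each library for 6 members called in a resistance, FASN or cell line comparison or in the test of the difference between resistance changes, with 1 point per library and the mean of each group as a bar. hsa_circ_11450 is lowest in FASN cells among the cancer groups, hsa_circ_12368 is higher in osimertinib-resistant than in other NCI-H1975 cells, and hsa_circ_18450 is at 0 there.

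The resistance changes of the lines were tested against each other as the change in PC-9 minus that in NCI-H1975. edgeR called 7 members, 3 with the higher change in PC-9 and 4 with the lower one, or 3.8% of the members tested against 1.77% of all circRNAs tested, with 0.828% and 0.937% in those directions. The rule used the PC-9 and NCI-H1975 libraries of this test, so nothing is read from that excess. hsa_circ_18450 had a ratio of 1.47 between gefitinib-resistant and other PC-9 cells, with 60 against 49 reads (not called, edgeR adjusted p = 0.827), and had no read in osimertinib-resistant cells (edgeR adjusted p of the difference = 0.000286). hsa_circ_18757 had 41 reads with gefitinib resistance against 16 in PC-9, and 60 with osimertinib resistance against 119 in NCI-H1975. Neither change was called (edgeR adjusted p = 0.132 and 0.408), while that of the difference was 0.0381.

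hsa_circ_12368 rose 14.1-fold in NCI-H1975, and its ratio in PC-9 was 1.62, which was not called (edgeR adjusted p = 0.555). The edgeR adjusted p of the difference was 0.00332. hsa_circ_16672 had 10, 5 and 10 reads in PC-9 and none in the gefitinib-resistant cells, lower by 6.94-fold or more. In osimertinib-resistant cells it had 1, 17 and 4 reads against 0, 6 and 1 (edgeR adjusted p of the difference = 0.00988). That difference rested on osimertinib-resistant replicate 2, with an adjusted p of 0.174 without it. The calls of hsa_circ_18450 and hsa_circ_12368 held with any of the 12 libraries left out, that of hsa_circ_18757 in 4 of 12. The count fell to 3 without gefitinib-resistant replicate 1, to 4 without gefitinib-resistant replicate 2 or PC-9 replicate 2, and to 1 without the filter on low counts.

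FASN and pCMV6 cells were both outside the rule, so their comparison is the one test of a treatment here whose libraries did not choose the members. The filter on low counts did use them: it kept 184 of the 377 members, and a member can pass through the group in which it is high. hsa_circ_11450 had 27, 18 and 24 reads with pCMV6 and 0, 0 and 1 with FASN. It stood at 283 ± 44.5 and 4.11 ± 7.12 CPM (SD, n = 3), 77.6-fold lower with FASN (edgeR adjusted p = 6.58e-09). The fold rests on 1 read in FASN replicate 3: its 95% exact conditional interval, which covers counting error only and not the spread between libraries, was 13.5 to 3110. With a library left out, the fitted log2 difference lay between -7.86 and -5.26. NCI-H1975 cells without a plasmid held 15, 6 and 10 reads and osimertinib-resistant cells 20, 4 and 13, so both lay between the transfected groups. Against NCI-H1975, pCMV6 cells were higher without a call (log2 1.61 ± 0.50 SE, edgeR adjusted p = 0.166). FASN cells were lower than NCI-H1975, also without a call (log2 -4.24 ± 0.95 SE, edgeR adjusted p = 0.072). With the PC-9 result, hsa_circ_11450 was called lower in 2 comparisons that share no library, though both come from 1 model. The rule used the PC-9 libraries of the former. FASN cells had the lowest level of hsa_circ_11450 among the 6 cancer groups.

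It was the single member called of 184 tested, 0 higher and 1 lower, or 0.543% against 0.316% of all circRNAs tested, with 0.196% higher and 0.12% lower. The members with an unadjusted p under 0.05 numbered 14 of 184, against 729 of all 9175 circRNAs tested, so they were near the background. The call held in all 6 fits with a library left out and in DESeq2. The median log2 difference was 0.08 over the members and 0.00 over all circRNAs tested, with 52.2% of the members and 48.8% of all circRNAs above 0. Among the abundant members, hsa_circ_7540 had 39, 30 and 21 reads with pCMV6 and 49, 64 and 41 with FASN. Its CPM of 367 ± 85.7 and 562 ± 50.9 (SD, n = 3) did not overlap, but it was not called (edgeR adjusted p = 0.708).

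Both transfected groups were also set against NCI-H1975 cells without a plasmid code, a comparison that shares the NCI-H1975 libraries with that of osimertinib resistance. The rule used those libraries too, so nothing is read from the shares of members here. edgeR called no member in pCMV6 cells, where 0.36% of all circRNAs tested were called. An unadjusted p under 0.05 was found there for 21 of the 184 members and 722 of the 9175 circRNAs tested. DESeq2 called 2 there, and leaving out NCI-H1975 replicate 2 gave 1 by edgeR. In FASN cells edgeR and DESeq2 called no member and 0% of all circRNAs tested, with 9 members and 336 of all 9175 circRNAs at an unadjusted p under 0.05 by edgeR, and 5 members and 354 circRNAs by DESeq2. Without NCI-H1975 replicate 2, edgeR called 1. hsa_circ_51301, with no read in pCMV6 cells, had 1, 6 and 11 in NCI-H1975 (edgeR adjusted p = 0.137). It was read in FASN replicate 2 alone of the FASN libraries, with 7 reads, and 21, 11 and 26 times in osimertinib-resistant cells. hsa_circ_28962, with no read in FASN cells, had 4, 7 and 7 in NCI-H1975 (edgeR adjusted p = 1).

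The members' numbers were not used by the rule and are described here. A number depends on which library of the table, taken from left to right, first shows a read of the circRNA. Within a library the order is not explained in the sources used here. Runs of consecutive numbers without an NL20 read were short as a rule. Among the 19494 circRNAs first read in pCMV6 replicate 1, 29.6% had no NL20 read, and the median length of such a run was 1. In that block 12 runs spanned 8 numbers or more. 6 of them held members, 28 in all, and the other 6 held none and had between 0 and 14 reads in PC-9. These runs were picked out after their values were seen and have no test. A run was defined by the lack of an NL20 read, as the members were. Its contrast in NL20 with neighbouring numbers therefore follows from the definition.

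The longest run of the block went from number 2640 to 2684, 45 numbers in a row. It held 11 members and the pair that the rule leaves out. The 80 circRNAs numbered within 40 on either side had an NL20 read in 56 cases, with 614 NL20 reads in all. The 11 members had 429 reads in PC-9 and 217 in its gefitinib-resistant cells, 250 in NCI-H1975, 205 in FASN, 139 in pCMV6 and 81 in osimertinib-resistant cells. As a share of a library this was 0.0970% ± 0.016 in PC-9 (SD, n = 3) and 0.0548% ± 0.0050 in NCI-H1975. In osimertinib-resistant cells it was 0.0201% ± 0.0092, and all 3 of those libraries lay below all libraries of the other cancer groups. hsa_circ_2641, called lower with osimertinib resistance above, is 1 of the 11. hsa_circ_2644 had 109 reads in PC-9 and 32 with gefitinib resistance, 52 in NCI-H1975 and 15 in osimertinib-resistant cells. hsa_circ_2662 had 39, 31, 27 and 9 in the same order. Not every member of the run fell with each resistance: hsa_circ_2653 had 19, 5, 12 and 15, and hsa_circ_2679 had 11, 17, 10 and 4. The rule used the PC-9 and NCI-H1975 libraries, so nothing is read from falls against them.

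The run from 6758 to 6780 spanned 23 numbers and held 7 members, among them hsa_circ_6760. Its circRNAs had 486 reads in PC-9 and 380 with gefitinib resistance, 332 in NCI-H1975, 289 in osimertinib-resistant, 273 in pCMV6 and 194 in FASN cells. A shorter run from 16674 to 16683 held 3 members, among them hsa_circ_16677, and had 137 reads in NCI-H1975 and 305 in osimertinib-resistant cells. Its reads in PC-9 were 116, and 180 with gefitinib resistance. The run from 2954 to 2963, with 3 members, leaned to PC-9, with 351 reads there and 357 with gefitinib resistance, against 62 in NCI-H1975. Over all 377 members, those in these runs included, 11.7% had a member at an adjacent number, while among all 8193 circRNAs with 5 reads in both lines 53.0% had another of these at an adjacent number. The members are a smaller part of the numbers than those 8193, which lowers that share by itself.

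**Figure D5:**
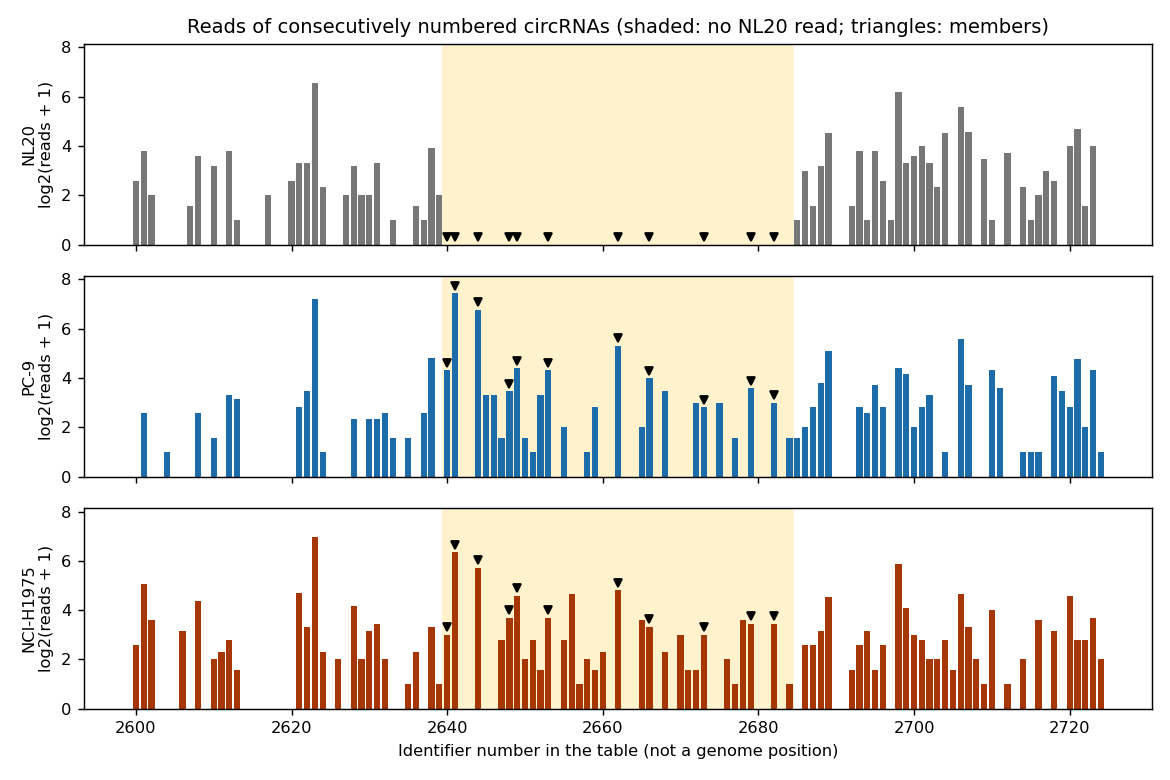
Reads over 3 libraries, as log2(reads + 1), of consecutively numbered circRNAs in NL20, PC-9 and NCI-H1975, with the run from 2640 to 2684 shaded, members marked by triangles and the pair that the rule leaves out not drawn. By the definition of the run, NL20 has no read across the shaded numbers, and it has reads on both sides. Each cancer line has reads at many numbers of the run and none at others.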

How the data were processed

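Circular RNA of 21 libraries from 3 human lung cell lines was sequenced. A service company enriched circular RNA from total RNA and built the libraries, per the labels. The authors deposited raw read counts, 1 whole number for each circRNA and library. Named in the submitters' processing notes, with no role or version, are hg38, HISAT2 and DESeq2. Which circRNA caller was run is not given in the sources used here.

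Columns were matched to samples by the code in the title. Members and lists were chosen with earlier results of these data known. Named members were the 10 with the most reads, up to 2 called in each direction per comparison, the best counted member unread in each group outside the rule, and the 2 highest and lowest PC-9 to NCI-H1975 ratios. Members named from number runs, the 3 unread in 4 groups, and comparisons of named members other than those that chose them were picked after values were seen.

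filterByExpr (minimum count 5, minimum total 15) kept 9175 circRNAs, 184 of them members. R 4.3.3 with edgeR 4.0.16 fitted 1 quasi-likelihood model with robust spread and TMM scaling to all 7 groups, with Benjamini-Hochberg adjustment over all 9175 in each comparison and calls at an adjusted p under 0.05. Standard errors were taken from the log2 change and the F statistic of its test. A group without a read was given a floor of 3 counts. Folds are of pooled group rates. Thinning used 100 draws. The code was tested on simulated data, with changes planted in circRNAs at a mean count of at least 5. Comparisons within a line called 37 to 46% of planted 4-fold changes and 6 to 10% of 2-fold changes. Most members had a lower mean count than that, and recovery at their counts was not tested. A member not called may therefore still differ. Alternatives were DESeq2 1.42.0, its size factors, scaling without the most abundant circRNA, no filter, only the groups compared, a replicate block and leaving out each library.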

Additional observations from a re-analysis of the deposited data

Results flagged for a closer look

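For 7 members the change with resistance differed between PC-9 and NCI-H1975 in edgeR's quasi-likelihood test of the difference itself. Differences are given as the log2 change in PC-9 minus that in NCI-H1975, and fitted values of circRNAs without a read in a group depend on the prior count. hsa_circ_18450 had a fitted difference of 7.07, with no read in osimertinib-resistant cells. hsa_circ_16672 had -8.01 and hsa_circ_809 had -5.52, both without a read in gefitinib-resistant PC-9, and hsa_circ_809 had 96 reads in osimertinib-resistant against 84 in other NCI-H1975 cells. hsa_circ_12368 had -3.04. hsa_circ_11450 had -2.80, being 5.25-fold lower in gefitinib-resistant PC-9 and at 37 against 31 reads in the osimertinib comparison. hsa_circ_18757 had 2.28. hsa_circ_2641 had 2.19, with 103 against 174 reads in the gefitinib comparison, which was not called, and 6.30-fold lower in osimertinib-resistant NCI-H1975. With 1 of 12 libraries left out, the call held in 8 fits for hsa_circ_11450, in 7 for hsa_circ_809, in 11 for hsa_circ_16672 and in 4 for hsa_circ_2641. The rule used the PC-9 and NCI-H1975 libraries of this test.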

How the results depend on the processing

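No log2 change of a called member changed sign under any alternative. Without the filter on low counts, edgeR called 1 member with gefitinib resistance, 3 with osimertinib resistance, 33 in the cell line comparison and 1 for the difference between resistance changes. DESeq2 called 9 members with osimertinib resistance and 2 in pCMV6 against NCI-H1975 cells. When scaling factors left out the most abundant circRNA, 1 member was called in pCMV6 against NCI-H1975 cells, and hsa_circ_16677 and hsa_circ_29236 were no longer called with resistance. With single libraries left out, members called ranged between 1 and 4 with gefitinib resistance, 3 and 5 with osimertinib resistance, 1 and 1 for FASN against pCMV6, 0 and 1 for pCMV6 against NCI-H1975, 0 and 1 for FASN against NCI-H1975, 39 and 61 in the cell line comparison, and 3 and 6 for the difference. No pairing of libraries by replicate number showed in the counts: the correlation of same-numbered deviations lay between -0.025 and 0.0339. These values cannot exclude that same-numbered libraries were prepared together. With the replicate block, edgeR called 4 members with gefitinib resistance, 4 with osimertinib resistance, 1 for FASN against pCMV6, 57 in the cell line comparison and 7 for the difference. The number of members moved with the thresholds, to 1059 circRNAs at 3 reads in each line, 92 at 10 reads and 574 with at most 1 NL20 read, and to between 551 and 589 when 1 NL20 library was left out.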
